A study of Rattus norvegicus with 12 samples.

Results

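The genes described here are 8 members of the rat machinery that modifies newly made collagen in the endoplasmic reticulum (ER). They are the prolyl 4-hydroxylase subunits P4ha1, P4ha2 and P4hb, the lysyl hydroxylases Plod1, Plod2 and Plod3, and the partner proteins Serpinh1 and Crtap, which are not hydroxylases themselves. The genes were chosen by symbol, with the row of the highest total count kept where a symbol recurred. Each of the 8 symbols had 1 row among the 30562 genes of the table, so no measured total decided membership. The family was proposed with earlier results of the same comparison known, so that the number of members called is a description and not independent evidence.

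RNA was sequenced from primary rat oligodendrocyte precursor cells (OPCs), the glial progenitors that give rise to myelinating oligodendrocytes. All cells were wild type (WT) and came from the cerebral cortices of newborn Sprague-Dawley rats. OPCs kept at 5% FiO2 (mild-hypo-OPCs, 6 libraries) were compared with OPCs kept in room air (standard OPCs, 6 libraries). The labels give the exposure as 6 hours and the methods of the study as 6 days, and the labels do not say which libraries came from separate cultures. The study's legend states 3 biological replicates per group, whereas 6 libraries per group were deposited, so n = 6 below counts libraries and some may share a culture. The p-values measure the spread between these libraries, which may in part be technical. A mild-hypo-OPC library held between 4111669 and 9022324 counts (median 4915674.5), and a standard OPC library between 1356079 and 2797513 (median 1952621). The ranges did not overlap, so depth and condition cannot be told apart by grouping the libraries. The defining OPC markers Pdgfra, Cspg4, Olig1, Olig2, Sox10 and Ptprz1 were all detected, and 0 of these 6 were called between the groups.

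Collagen chains are hydroxylated on proline and lysine before they fold into a triple helix. Prolyl 4-hydroxylase is a tetramer of catalytic alpha subunits (P4ha1 or P4ha2) and the protein disulfide isomerase P4hb, and the hydroxyproline it makes stabilises the helix. The lysyl hydroxylases of the Plod family make the hydroxylysine that carries sugars and takes part in cross-links. Both enzyme families use molecular oxygen, iron and 2-oxoglutarate, and P4ha1, P4ha2 and Plod2 are known targets of the hypoxia-inducible factor HIF-1. In the brain, fibrillar collagen is sparse outside vessels and meninges, and OPCs are better known for proteoglycans and some minor collagens.

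Promoter sequences are shown because HIF-1 binds DNA at a short core, ACGTG or GCGTG, and because 3 of the genes were called higher. They are the 250 bases before the annotated start in RefSeq (GRCr8, whereas the counts were made on mRatBN7.2), written 5′ to 3′ on the strand of the gene, with every match to ACGTG or GCGTG on either strand in capitals (CACGT and CACGC are the same letters read on the other strand). All 8 genes had an entry. Shown are the 3 genes called higher and the 2 with the most matches, and the P4ha1 window lies at an annotated start within the span of the gene.
P4ha1, chr20:27844796-27845045, plus strand: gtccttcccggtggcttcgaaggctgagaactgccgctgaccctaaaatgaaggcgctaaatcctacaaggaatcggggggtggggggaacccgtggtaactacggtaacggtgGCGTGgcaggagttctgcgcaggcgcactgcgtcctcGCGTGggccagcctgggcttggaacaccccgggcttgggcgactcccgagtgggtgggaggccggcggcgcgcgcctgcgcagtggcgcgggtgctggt
Plod3, chr12:25323632-25323881, minus strand: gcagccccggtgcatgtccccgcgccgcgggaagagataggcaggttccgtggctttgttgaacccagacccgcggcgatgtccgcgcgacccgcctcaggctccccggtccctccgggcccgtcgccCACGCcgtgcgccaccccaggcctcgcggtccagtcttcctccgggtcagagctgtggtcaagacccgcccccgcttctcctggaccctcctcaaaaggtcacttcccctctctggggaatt
Serpinh1, chr1:163062977-163063226, minus strand: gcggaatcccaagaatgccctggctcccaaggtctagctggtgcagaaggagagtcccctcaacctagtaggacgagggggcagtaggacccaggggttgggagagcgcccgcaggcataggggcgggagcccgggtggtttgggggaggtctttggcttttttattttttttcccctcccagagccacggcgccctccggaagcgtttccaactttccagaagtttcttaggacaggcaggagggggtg
P4ha2, chr10:38743644-38743893, plus strand: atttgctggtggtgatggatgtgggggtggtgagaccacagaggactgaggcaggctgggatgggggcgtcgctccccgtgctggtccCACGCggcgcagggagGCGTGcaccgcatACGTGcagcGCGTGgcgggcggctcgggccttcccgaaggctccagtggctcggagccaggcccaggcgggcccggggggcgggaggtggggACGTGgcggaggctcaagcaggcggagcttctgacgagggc
Plod2, chr8:101964068-101964317, plus strand: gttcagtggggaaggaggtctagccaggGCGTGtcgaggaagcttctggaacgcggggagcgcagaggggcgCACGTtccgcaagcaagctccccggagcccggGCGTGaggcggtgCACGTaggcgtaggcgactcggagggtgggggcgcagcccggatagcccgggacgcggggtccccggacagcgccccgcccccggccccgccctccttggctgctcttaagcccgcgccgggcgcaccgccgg
The P4ha1 window held 2 matches, both GCGTG, beginning 136 and 99 bases before the start. The Plod3 window held 1 and the Serpinh1 window 0. P4ha2 held 5 matches and Plod2 held 4, while Plod1 and Crtap held 1 each and P4hb held 0. Of all 33469 promoter windows of this length, 36.7% held at least 1 match, 2.44% at least 4 and 1.04% at least 5. The stricter core ACGTG was found in P4ha2 and Plod2 only among the 8 genes, and in 16.6% of all windows. A match is a description of the letters in the window and was not tested as a binding site.

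In mild-hypo-OPCs, 3 of the 8 genes were higher and 0 were lower at an adjusted p under 0.05 (edgeR's quasi-likelihood test, adjusted over all genes tested). These were the catalytic subunit P4ha1, the lysyl hydroxylase Plod3 and the collagen chaperone Serpinh1, with rises of 1.39-, 1.27- and 1.53-fold. P4hb, Plod1 and Crtap were tested and not called, and P4ha2 and Plod2 fell below the filter, which asked for a counts-per-million (CPM) value over 10 in any library. Among all 8938 genes that passed this filter, 7.00% were called higher and 17.0% lower. Log2 fold changes are given throughout for mild-hypo-OPCs relative to standard OPCs, and their median over all genes tested was -0.00. Among the members tested, Plod1 passed the filter only through a mild-hypo-OPC library, so the signs of those tested are not counted. In 1 member, P4ha1, the groups were fully separated with mild-hypo-OPCs on top, a pattern found in 2.94% of the genes tested, with the opposite pattern in 5.40%. All levels below are CPM scaled with edgeR's TMM factors, and they are compared between groups. Transcript length was not used, so where genes of the highest CPM in a list are named, the order is of CPM and not of transcript number.

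**Figure D1:**
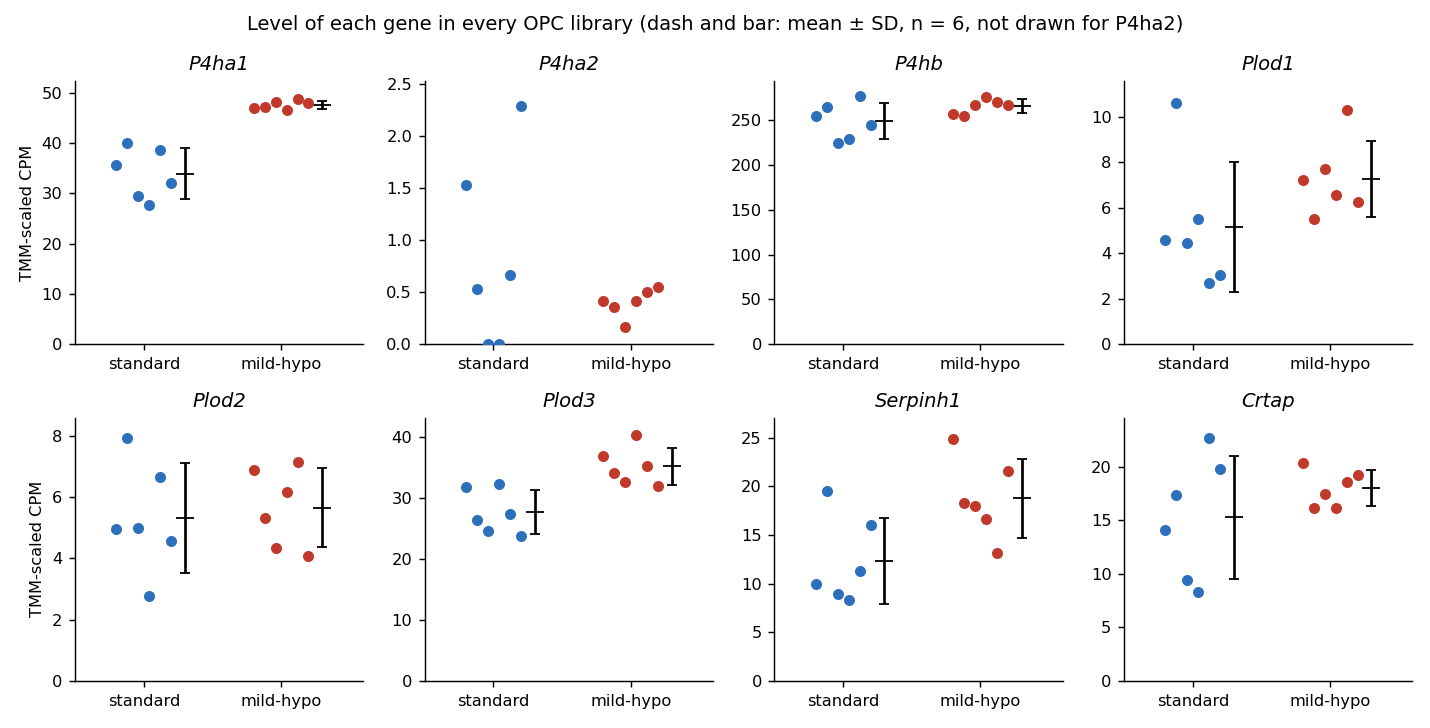
Level of each of the 8 genes in every library, in TMM-scaled CPM on the vertical axis, for 6 standard OPC (blue) and 6 mild-hypo-OPC (red) libraries, with the mean and SD beside the points except for P4ha2, which has at most 4 counts per library. P4ha1 is the gene whose groups do not overlap, with mild-hypo-OPC libraries between 46.5 and 48.8 and standard OPC libraries between 27.6 and 40.1.

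P4ha1 (ENSRNOG00000050655) encodes the more widely expressed catalytic subunit of prolyl 4-hydroxylase. Its scaled CPM in mild-hypo-OPC replicates 1 to 6 was 47.0, 47.1, 48.2, 46.5, 48.8 and 47.9. In standard OPC replicates 1 to 6 it was 35.6, 40.1, 29.5, 27.6, 38.7 and 32.1. The mild-hypo-OPC libraries were close to one another, and even the highest standard OPC library stayed below the lowest of them. The mean was 47.6 ± 0.849 (SD, n = 6) against 33.9 ± 5.04 (SD, n = 6), with 227 to 451 counts behind each of the former values and 30 to 93 behind each of the latter. The log2 fold change was 0.47 (SE 0.09, adjusted p = 0.00129, edgeR), and 280 of the tested genes had a larger one. The call held in each of the 12 fits that left out a library and when all libraries were thinned to the depth of the smallest (0.58, adjusted p = 0.00197). It was lost when only replicates 1 to 3 of each group were used (0.45, adjusted p = 0.0709), with a covariate for log2 total count (0.39, adjusted p = 0.646) and with one for the ribosomal RNA share, a setting added once the data had been seen (0.31, adjusted p = 0.207). Since the total counts of the groups did not overlap, a fit with log2 total count has little power to separate depth from condition, here and below.

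P4ha2 (ENSRNOG00000033663), the alternative catalytic subunit, was close to absent. The mild-hypo-OPC libraries held 4, 2, 1, 2, 3 and 3 counts, and the standard OPC libraries 4, 1, 0, 0, 1 and 3. Most libraries were at or below a floor of 3 counts, so no fold change is given and a difference was not detectable at this depth. P4hb (ENSRNOG00000036689), the disulfide isomerase that completes the tetramer and also acts outside it, had 257, 255, 267, 276, 270 and 267 scaled CPM in mild-hypo-OPC replicates 1 to 6. In standard OPC replicates 1 to 6 it had 255, 265, 225, 229, 277 and 244. The groups overlapped, with means of 265 ± 8.11 and 249 ± 20.4 (SD, n = 6 each). The log2 fold change of P4hb was 0.09 (SE 0.07, adjusted p = 0.394, edgeR), with a 95% interval from -0.07 to 0.25. At library size only P4hb was called higher (0.53, adjusted p = 0.00014), and with the covariate for ribosomal RNA share it was -0.07.

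Since P4ha1 and P4hb belong to the same enzyme, their ratio within a library was taken. It needs no scaling factor and gives P4ha1 relative to P4hb, not the change of P4ha1 alone. Mild-hypo-OPC libraries had 18.3, 18.5, 18.0, 16.8, 18.1 and 17.9 P4ha1 counts for every 100 P4hb counts. Standard OPC libraries had 13.9, 15.2, 13.1, 12, 13.9 and 13.1. Every mild-hypo-OPC library lay above every standard OPC library. On the log2 scale the ratio was -2.48 ± 0.05 against -2.87 ± 0.11 (SD, n = 6 each), a difference of 0.40. The two-sided exact permutation test gave p = 0.00216, the smallest that 924 arrangements allow, and 0.00866 after Benjamini-Hochberg adjustment over the 4 ratios computed. With a replicate block the difference was also 0.40, with an adjusted p of 0.0625 (exact sign-flip permutation, smallest p 0.0312). The ratio of P4ha1 to P4ha2 was the least certain of the 4, since P4ha2 had 0 to 4 counts: its log2 difference was 1.42 with the prior count of 0.5 added to both genes, 0.70 with 0.1 and 2.07 with 5, and nothing is read from it.

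**Figure D2:**
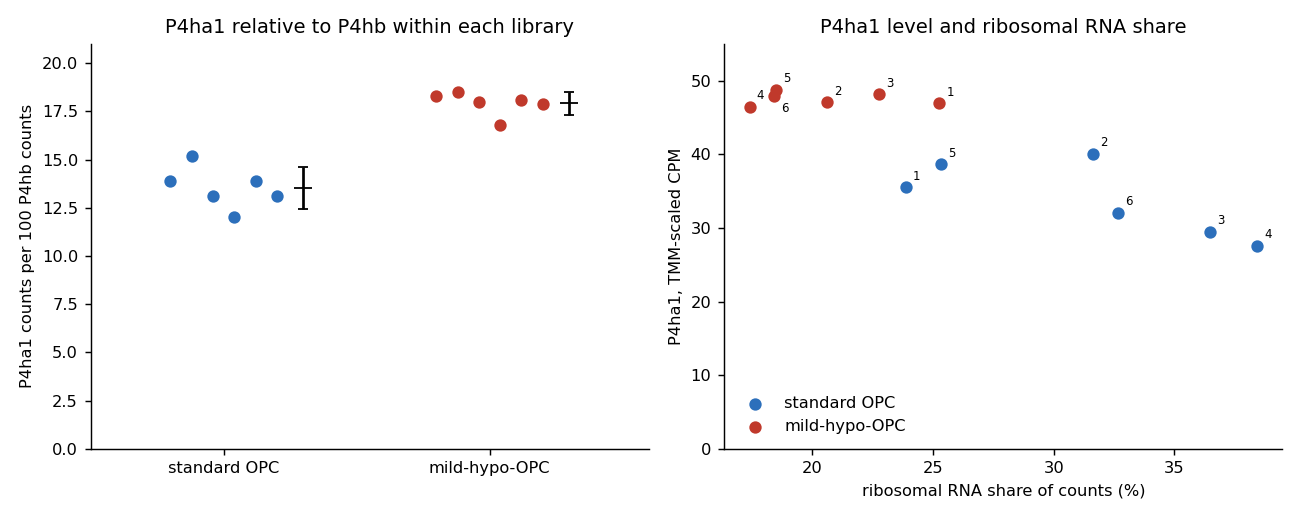
Left, P4ha1 counts per 100 P4hb counts in each library with mean and SD (n = 6), 16.8 to 18.5 in mild-hypo-OPCs (red) and 12 to 15.2 in standard OPCs (blue). Right, P4ha1 level in TMM-scaled CPM against the percentage of counts on ribosomal RNA genes, each point a library labelled with its replicate number, where the 3 standard OPC libraries of the highest share have the 3 lowest P4ha1 levels.

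The share of counts on ribosomal RNA genes moved with the condition as well. It was 25.25, 20.62, 22.77, 17.40, 18.51 and 18.40% in mild-hypo-OPC replicates 1 to 6 and 23.87, 31.63, 36.45, 38.42, 25.31 and 32.67% in standard OPC replicates 1 to 6. Within standard OPCs, replicates 4, 3 and 6 had the highest shares and the 3 lowest P4ha1 levels. At shares close to each other, mild-hypo-OPC replicate 1 (25.25%) had a P4ha1 level of 47.0, while standard OPC replicates 1 (23.87%) and 5 (25.31%) had 35.6 and 38.7. These libraries were picked after their values were seen, and so few cannot separate the share from the condition, so nothing is read from them. The part of this share in the result was not tested beyond the covariate fit above.

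Among the lysyl hydroxylases, Plod3 was called higher and Plod1 and Plod2 were not. Plod3 (ENSRNOG00000001417), which also carries the glycosyltransferase activity that adds sugars to hydroxylysine, had 36.8, 34.1, 32.6, 40.2, 35.2 and 31.9 scaled CPM in mild-hypo-OPC replicates 1 to 6. In standard OPC replicates 1 to 6 it had 31.7, 26.4, 24.5, 32.2, 27.3 and 23.7. The groups met at their edges, with 5 of the 6 mild-hypo-OPC libraries above the highest standard OPC library. The means were 35.1 ± 3.04 and 27.6 ± 3.61 (SD, n = 6 each), a log2 fold change of 0.34 (SE 0.10, adjusted p = 0.0226, edgeR). The call was lost without standard OPC replicate 3 (0.31, adjusted p = 0.0551) or replicate 6 (0.31, adjusted p = 0.0521), and after thinning (0.37, adjusted p = 0.0901). Nor was it called in replicates 1 to 3 (0.33, adjusted p = 0.219) or 4 to 6 only (0.38, adjusted p = 0.134), and with the covariate for log2 total count (0.29, adjusted p = 0.826) or for ribosomal RNA share (0.26, adjusted p = 0.370).

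Plod1 (ENSRNOG00000007763), the lysyl hydroxylase known for helical cross-link sites, had 7.2, 5.51, 7.71, 6.56, 10.3 and 6.27 scaled CPM in mild-hypo-OPC replicates 1 to 6. In standard OPC replicates 1 to 6 it had 4.59, 10.6, 4.45, 5.52, 2.67 and 3.05, on 4 to 20 counts. A single standard OPC library, replicate 2, was above all mild-hypo-OPC libraries. The log2 fold change was 0.46 (SE 0.28, adjusted p = 0.248, edgeR), with a 95% interval from -0.16 to 1.09. Without standard OPC replicate 2 it was 0.83 (adjusted p = 0.0339), and without mild-hypo-OPC replicate 5 the gene did not pass the filter. At library size only the log2 fold change was 0.89 (adjusted p = 0.0076).

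Plod2 (ENSRNOG00000030183), which hydroxylates the telopeptides of collagen and is the family member best known as a hypoxia target, did not stand apart. It had 6.88, 5.33, 4.33, 6.15, 7.13 and 4.06 scaled CPM in mild-hypo-OPC replicates 1 to 6. In standard OPC replicates 1 to 6 it had 4.97, 7.92, 5.00, 2.76, 6.66 and 4.58, and the standard OPC libraries reached both below and above the mild-hypo-OPC range. Its highest unscaled CPM was 8.67, below the filter. In a fit of all 17391 genes with a count, in which 4.22% were called higher and 8.72% lower, its log2 fold change was 0.09 (SE 0.25, adjusted p = 0.835, edgeR), with a 95% interval from -0.47 to 0.66. It lay between 0.01 (without standard OPC replicate 4) and 0.25 (without standard OPC replicate 2) when a library was left out, and at library size only it was 0.48 (adjusted p = 0.142). The log2 ratio of Plod2 to Plod1 differed by -0.48 (exact permutation p = 0.177, adjusted p = 0.237) and that of Plod2 to Plod3 by -0.29 (exact permutation p = 0.275, adjusted p = 0.275). Without standard OPC replicate 4, these became -0.68 (adjusted p = 0.0346) and -0.48 (adjusted p = 0.0317) by the exact permutation test.

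Serpinh1 (ENSRNOG00000016831) encodes HSP47, a chaperone that binds the folded collagen helix in the ER. Its scaled CPM was 24.9, 18.3, 18.0, 16.6, 13.1 and 21.6 in mild-hypo-OPC replicates 1 to 6. In standard OPC replicates 1 to 6 it was 9.94, 19.5, 8.90, 8.28, 11.3 and 16.0. Standard OPC replicates 2 and 6 reached into the mild-hypo-OPC range, and the other 4 stayed below it. The means were 18.7 ± 4.09 and 12.3 ± 4.48 (SD, n = 6 each), and the log2 fold change was 0.61 (SE 0.21, adjusted p = 0.0358, edgeR), the largest of the 6 members tested. The call was lost with limma-voom (0.64, adjusted p = 0.0539), after thinning (0.55, adjusted p = 0.132), without mild-hypo-OPC replicate 1 (0.53, adjusted p = 0.0687) and without standard OPC replicates 1, 3, 4 or 5 in turn (0.53, 0.53, 0.55 and 0.59, adjusted p = 0.0825, 0.0960, 0.0766 and 0.0712). With a covariate for log2 total count it was 0.03 (adjusted p = 0.998), with that for ribosomal RNA share 0.91 (adjusted p = 0.105), and in replicates 1 to 3 or 4 to 6 only 0.73 and 0.51 (adjusted p = 0.114 and 0.213).

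Crtap (ENSRNOG00000009878) encodes the cartilage-associated protein, the non-catalytic partner in the complex that 3-hydroxylates proline. It had 20.4, 16.2, 17.5, 16.2, 18.6 and 19.2 scaled CPM in mild-hypo-OPC replicates 1 to 6 and 14.1, 17.4, 9.45, 8.28, 22.7 and 19.8 in standard OPC replicates 1 to 6. The standard OPC libraries lay on both sides of the mild-hypo-OPC range, with means of 18.0 ± 1.71 and 15.3 ± 5.73 (SD, n = 6 each). The log2 fold change was 0.24 (SE 0.17, adjusted p = 0.339, edgeR), with a 95% interval from -0.15 to 0.63. It was 0.13, 0.15 and 0.37 without standard OPC replicates 3, 4 and 5 in turn, 0.05 in replicates 4 to 6 only, and 0.66 (adjusted p = 0.00255) at library size only.

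**Figure D3:**
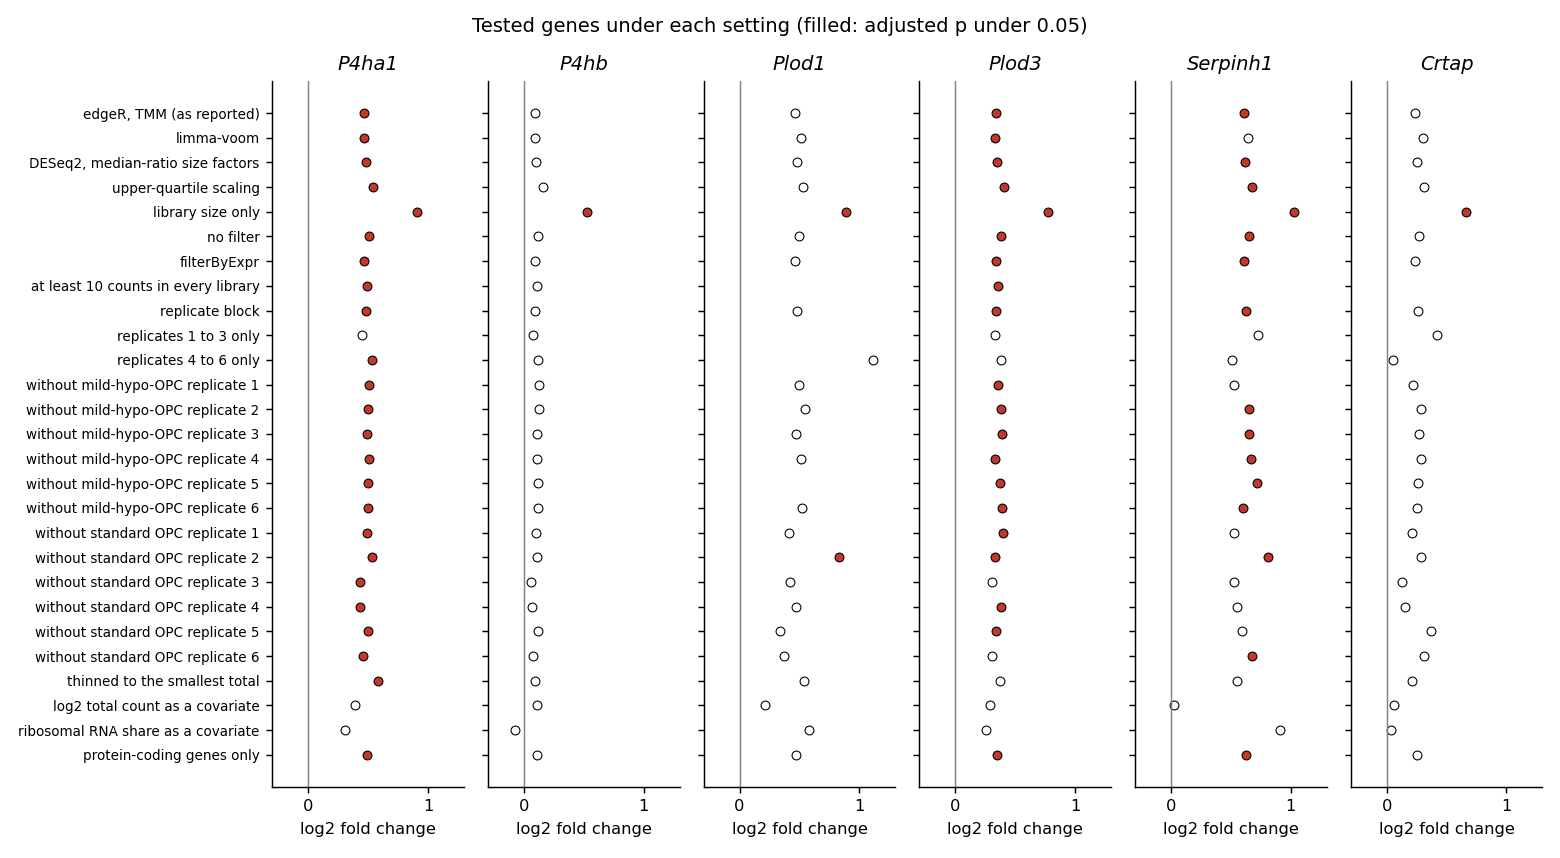
Log2 fold change of the 6 members that passed the filter (horizontal axis) under each processing setting (rows), filled where the adjusted p was under 0.05 and missing where a gene was not tested. P4ha1 stays between 0.31 and 0.91 and loses its fill in 3 settings, and Serpinh1 reaches 0.03 with the log2 total count as a covariate.

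Beside the members, 6 lists of related genes were counted in the same fit, to be read against the 7.00% of all genes called higher and the 17.0% called lower. With either covariate, 0 genes of these lists were called in either direction, and in replicates 1 to 3 only 1 was called higher and 2 lower. A lost call did not always mean a smaller fold. With the covariate for log2 total count Col27a1 was -1.35 and Col9a3 0.90, while the signs of others turned, such as Ppib (0.15). With that for ribosomal RNA share Col27a1 was -0.78 and Col9a3 0.46. Of 16 hydroxylation partners and collagen chaperones, 13 were tested, 2 were called higher, 2 lower and 9 neither, with a median log2 fold change of 0.14. Colgalt1, the enzyme that adds galactose to hydroxylysine, rose from 38.4 to 50.2 scaled CPM (0.38, SE 0.09, adjusted p = 0.00590). P3h2, a prolyl 3-hydroxylase, rose from 9.37 to 14.2 (0.54, SE 0.16, adjusted p = 0.0221). Ppib, the cyclophilin that forms the 3-hydroxylation complex with Crtap and P3h1, fell from 232 ± 64.5 to 140 ± 15.5 (SD, n = 6 each; -0.71, SE 0.14, adjusted p = 0.00153). P3h4, a non-catalytic relative of the P3h family, fell from 41.4 to 31.0 (-0.43, SE 0.13, adjusted p = 0.0247). P3h1 had a log2 fold change of 0.20 (adjusted p = 0.351), so that the 3 proteins of that complex were not called in one direction. Kdelr2, the receptor that returns ER proteins, had the highest CPM of the list besides Ppib, with a log2 fold change of -0.02 (adjusted p = 0.887). P3h4 lost its call without mild-hypo-OPC replicates 1, 2 or 5 (adjusted p = 0.0639, 0.0758 and 0.0791) and without standard OPC replicates 1 or 5 (adjusted p = 0.0531 and 0.0732), and at library size only it was 0.00. P3h2 was not called with limma-voom (0.51, adjusted p = 0.0517), nor after thinning (0.34, adjusted p = 0.328). Ppib was -0.27 (adjusted p = 0.0962) at library size only, -0.34 (adjusted p = 0.193) in replicates 1 to 3 and 0.15 (adjusted p = 0.942) with the covariate for log2 total count.

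The collagen chains themselves, the substrates, were mostly at low counts. Of 41 chain genes, 10 passed the filter and 6 had no count in any library. Col1a1, Col1a2 and Col3a1, the chains of the common fibrillar collagens, had at most 9, 3 and 4 counts in a mild-hypo-OPC library and 3, 1 and 1 in a standard OPC library. Among those tested, 1 was called higher, 1 lower and 8 neither, with a median log2 fold change of 0.11. Col9a3, a chain of the fibril-associated collagen IX, rose from 22.0 ± 4.94 to 38.1 ± 3.28 scaled CPM (SD, n = 6 each; 0.77, SE 0.13, adjusted p = 0.00033). Col27a1, a minor fibrillar collagen, fell from 21.4 ± 5.61 to 9.59 ± 1.94 (SD, n = 6 each; -1.10, SE 0.18, adjusted p = 0.000322). For both genes the libraries of the 2 groups did not overlap. Over all genes tested, 2.94% had every mild-hypo-OPC library above every standard OPC library and 5.40% had the opposite. Other genes of the lists, such as Colgalt1, Pfkl, Bnip3 and Bnip3l, were separated as well. The chains of the highest CPM, Col11a1 and Col11a2, had log2 fold changes of -0.27 (adjusted p = 0.0697) and 0.11 (adjusted p = 0.575). With a library left out, Col11a2 lay between 0.03 and 0.24. Without standard OPC replicate 5, Col11a1 was called lower (-0.35, adjusted p = 0.0116), and at library size only its sign turned (0.17).

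Of 14 genes of extracellular collagen processing, 13 were among the genes counted and only 3 passed the filter. Of these 3, 2 were called higher and 0 lower, with a median log2 fold change of 0.38. Bmp1, the protease that removes the carboxyl propeptide of procollagen, rose from 35.6 to 46.3 scaled CPM (0.38, SE 0.11, adjusted p = 0.0137). Pcolce, which enhances that cleavage, rose from 4.04 to 7.90 (0.96, SE 0.25, adjusted p = 0.00903), on at most 12 counts in a standard OPC library. Without a filter, 2 genes of this list were called higher as well. Pcolce passed the filter through mild-hypo-OPC libraries only, so that its place among the 3 tested is set by the group where it is high. Its call was lost after thinning (0.84, adjusted p = 0.136) and in replicates 1 to 3 (1.10, adjusted p = 0.115) or 4 to 6 only (0.81, adjusted p = 0.176), and that of Bmp1 in replicates 1 to 3 (0.38, adjusted p = 0.111) or 4 to 6 only (0.40, adjusted p = 0.106). Sparc, a collagen-binding protein, had 0.30 (adjusted p = 0.0958). It was called without mild-hypo-OPC replicate 4 (0.37, adjusted p = 0.0452) or standard OPC replicate 2 (0.37, adjusted p = 0.0496) and after thinning (0.42, adjusted p = 0.0428), and was -0.42 with the covariate for log2 total count. Sparc was also called with a replicate block (0.32, adjusted p = 0.0373), upper-quartile scaling (0.37, adjusted p = 0.041) and library size only (0.73, adjusted p = 4.89e-05). The cross-linking enzymes Lox and Loxl1 to Loxl4 did not pass the filter, with at most 10 counts in any library.

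Of 18 ER disulfide isomerases and chaperones, the relatives and neighbours of P4hb, 16 were tested, 4 were called higher, 1 lower and 11 neither, with a median log2 fold change of 0.13. The isomerase Pdia4 rose to 126 scaled CPM (log2 fold change 0.33, SE 0.08, adjusted p = 0.00558), and Txndc11, a thioredoxin-domain protein, rose from 12.2 to 18.8 (0.61, SE 0.17, adjusted p = 0.0118). Ero1a, the oxidase that recharges disulfide isomerases and a HIF-1 target, rose from 16.6 to 23.0 (0.43, SE 0.14, adjusted p = 0.0283). Hsp90b1, the ER form of HSP90, rose from 260 to 306 (0.23, SE 0.08, adjusted p = 0.0368). Sdf2l1, a co-factor of the ER chaperone Hspa5, fell from 54.5 to 36.2 (-0.57, SE 0.13, adjusted p = 0.00357), and at library size only it was -0.14 (adjusted p = 0.387). Calr and Canx, the lectin chaperones with the highest CPM of the list, had 0.14 (adjusted p = 0.194) and 0.11 (adjusted p = 0.247). With all libraries thinned to the same total count, which leaves the ribosomal RNA shares unequal, 0 genes of this list were called higher (Pdia4 0.26, Txndc11 0.65, Ero1a 0.27 and Hsp90b1 0.22, adjusted p = 0.0612, 0.0535, 0.328 and 0.108), and 1 was called lower. Ero1a lost its call without mild-hypo-OPC replicate 1 (adjusted p = 0.0523) and without standard OPC replicates 3, 4 or 6 (adjusted p = 0.0641, 0.0635 and 0.0652). Hsp90b1 lost it without mild-hypo-OPC replicates 1 or 5 (adjusted p = 0.0598 and 0.0538) and without standard OPC replicates 3, 4, 5 or 6 (adjusted p = 0.0565, 0.0740, 0.0704 and 0.0659). With the log2 total count as a covariate, Ero1a, Hsp90b1 and Sdf2l1 had the opposite sign.

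Oxygen-sensing hydroxylases share the chemistry of the collagen enzymes, and Egln1 to Egln3 mark HIF for degradation. All 5 genes of that list were tested and 0 were called, with a median log2 fold change of 0.08. Egln1 had -0.15 (adjusted p = 0.343) and Egln2 -0.27 (adjusted p = 0.133), and both signs turned at library size only, where 4 of the 5 genes were called higher. With a library left out, Egln1 lay between -0.20 (without mild-hypo-OPC replicate 6) and -0.06 (without mild-hypo-OPC replicate 1). Egln2 was called lower without standard OPC replicate 1 (-0.36, adjusted p = 0.0325) and was -0.14 without standard OPC replicate 5. Egln3, itself induced by HIF-1, had 0.36 (SE 0.21, adjusted p = 0.231).

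Of 26 HIF-1 target genes, 24 were among the genes counted and 19 were tested. Of these 19, 4 were called higher, 2 lower and 13 neither, with a median log2 fold change of 0.14. The glycolytic genes Pfkl, Hk1 and Eno1 rose. Pfkl, a phosphofructokinase, went from 23.6 to 37.4 scaled CPM (0.64, SE 0.14, adjusted p = 0.00204). Hk1, a hexokinase, went from 91.7 to 113 (0.29, SE 0.09, adjusted p = 0.0289), and Eno1, an enolase, from 445 to 520 (0.22, SE 0.08, adjusted p = 0.0442). Ero1a, counted also among the ER genes, was the fourth. The mitophagy receptors Bnip3 and Bnip3l fell, Bnip3 from 83.9 ± 18.8 to 51.7 ± 5.72 (SD, n = 6 each; -0.69, SE 0.12, adjusted p = 0.000554) and Bnip3l from 94.9 ± 6.87 to 68.9 ± 4.97 (SD, n = 6 each; -0.45, SE 0.08, adjusted p = 0.000478). With library size only, which moved the median of all genes to 0.43, Bnip3 was -0.25 (adjusted p = 0.0810) and Bnip3l -0.02 (adjusted p = 0.888). After thinning, 3 were called higher and 2 lower. Aldoa, an aldolase with one of the highest CPM values of the list, had 0.14 (adjusted p = 0.191). Hk1 lost its call without standard OPC replicates 4, 5 or 6 (adjusted p = 0.0520, 0.0677 and 0.0680). Eno1 lost it without mild-hypo-OPC replicates 3, 4 or 6 (adjusted p = 0.0516, 0.0533 and 0.0519) and without standard OPC replicates 2, 3 or 4 (adjusted p = 0.0680, 0.102 and 0.0773). The Eno1 call was also lost with a replicate block (0.23, adjusted p = 0.0552) and with the filter filterByExpr of edgeR (0.22, adjusted p = 0.0556).

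**Figure D4:**
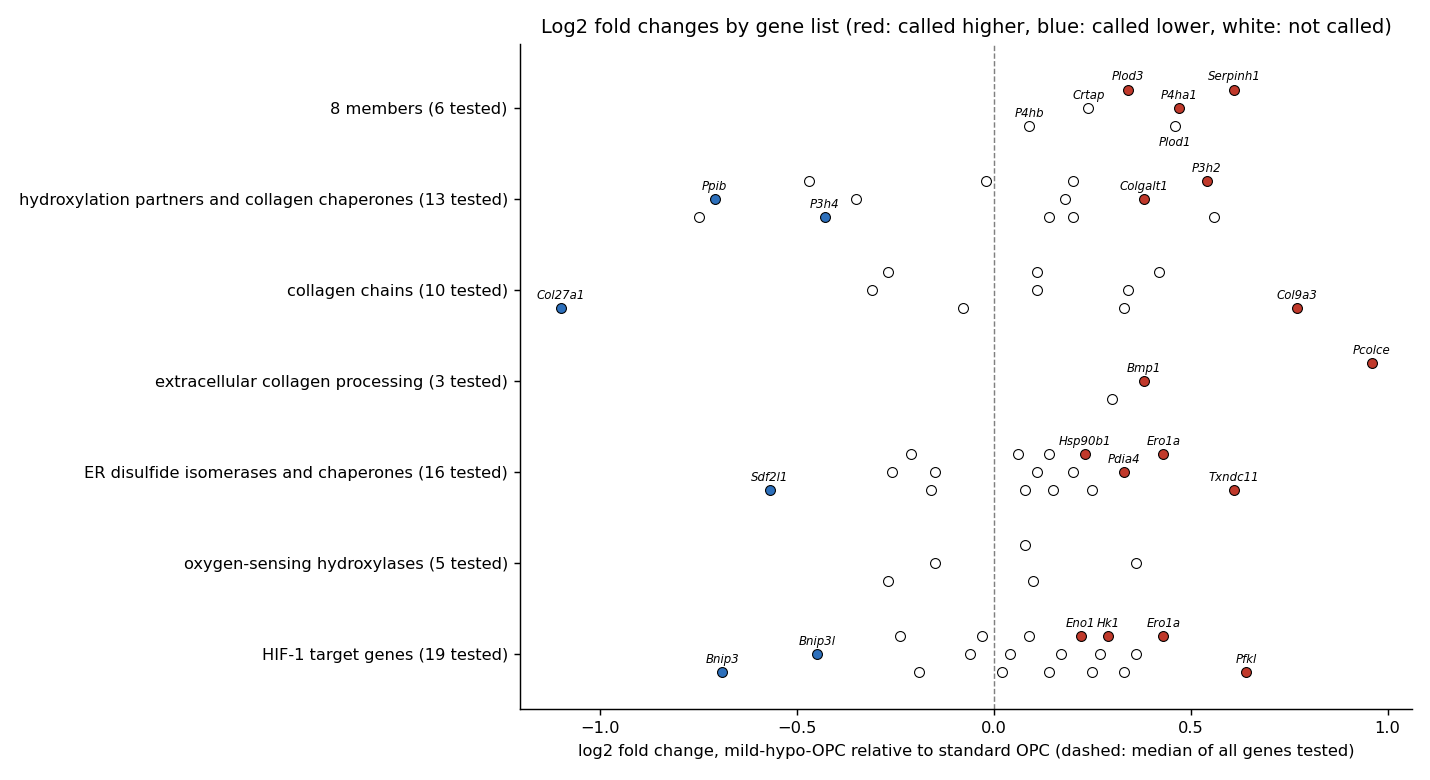
Log2 fold change of every tested gene (horizontal axis, mild-hypo-OPC relative to standard OPC) for the 8 members and 6 gene lists (rows), red where called higher, blue where called lower and white where not called, with the median of all genes as a dashed line. Called genes stand on both sides of the line in 4 of the lists, and over all lists they run from Col27a1 at -1.10 to Pcolce at 0.96.

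Markers of other cells were measured beside these genes, since fibroblasts and vascular cells make far more collagen than glia and since fewer cells of a type and less RNA per cell cannot be told apart in bulk samples. Counts of called markers, here and in the next paragraph, stand beside the 7.00% of all genes tested that were called higher and the 17.0% called lower. Of 8 mesenchymal or perivascular markers, Tagln passed the filter and was called higher (21.1 to 30.1 scaled CPM, 0.53, SE 0.15, adjusted p = 0.0124), while the other 7 had at most 9 counts in any library. Of these, Pdgfrb was found in every mild-hypo-OPC library (0.321 to 0.819 scaled CPM) and at 0 in every standard OPC library, Col1a1 had means of 0.736 and 0.191, Lum was at 0 throughout and Dcn was found in standard OPCs only, with at most 3 counts. The summed level of the list lay between 27.7 and 44.1 in the mild-hypo-OPC libraries and between 17.2 and 27.5 in the others, nearly all of it Tagln. Of 6 endothelial markers, 5 were among the genes counted, 0 passed the filter, and Cdh5 and Tek were at 0. Of 8 microglial markers, 4 were tested and 2 were called higher, with summed levels of 46.9 to 69.6 and 22.1 to 46.5 and Csf1r the gene of the highest CPM. C1qa and C1qc, which were tested and not called, reached only 9.51 and 6.5 scaled CPM in standard OPC libraries. They passed the filter through mild-hypo-OPC libraries only, so the number tested is set in part by that group. Of 6 astrocyte markers, 5 were tested and 2 were called higher (Aqp4 and Slc1a3), with summed levels of 587 to 702 and 521 to 586 and Gfap the gene of the highest CPM.

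Among markers of committed oligodendrocytes, Gpr17 (log2 fold change 0.45, SE 0.09, adjusted p = 0.000842), Mag (0.47, SE 0.10, adjusted p = 0.00295), Myrf (0.38, SE 0.13, adjusted p = 0.0441) and Cnp (0.28, SE 0.08, adjusted p = 0.0177) were called higher by edgeR. Mbp, which had the highest CPM of them, was at 7130 scaled CPM in mild-hypo-OPCs and 5850 in standard OPCs (0.29, SE 0.11, adjusted p = 0.0555), and Bcas1 and Mog were not called (-0.03 and 0.15, adjusted p = 0.827 and 0.578). Of 6 neuronal markers, 4 were tested and Tubb3 was called higher, with summed levels of 231 to 253 and 167 to 211 and Dcx the gene of the highest CPM. The part of any of these cell types in the levels of P4ha1, Plod3 and Serpinh1 was not tested.

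The genes whose log2 levels followed each called member most closely over the 12 libraries are given as a description, since all share the depth and condition of the libraries. For P4ha1 they were Fgl2 (Pearson r = 0.960), Bcat1 (0.960) and Dync1li2 (0.954), with 0.867, 0.826 and 0.792 after the group means were removed. For Plod3 they were Prkar2a (0.946), Itch (0.934) and Colgalt1 (0.934), with 0.874, 0.875 and 0.826. Colgalt1, whose product acts on the hydroxylysine that Plod enzymes make, was thus among the 3 genes most like Plod3. For Serpinh1 they were Dclk1 (0.892), Zfp41 (0.882) and Foxred2 (0.878), with 0.814, 0.828 and 0.845.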

How the data were processed

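Primary rat OPC libraries were prepared from 200 ng of total RNA with a strand-specific kit and sequenced as 76 bp paired-end reads. According to the submitters' processing notes and the study's methods, reads were trimmed with Trimmomatic 0.36, checked with FastQC 0.11.9, aligned with STAR 2.7.9a to mRatBN7.2 and quantified with RSEM 1.3.3. The values that the authors deposited are raw counts, whole numbers for each Ensembl gene, and how the RSEM estimates were made whole is not given in the sources used here. The table holds 30562 genes and 12 library columns, and 13171 genes had no count in any library.

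The groups were compared with edgeR 4.0.16 (R 4.3.3). A gene was kept if any library had over 10 CPM of it, which is the filter of the study, and glmQLFit and glmQLFTest were run with TMM factors and no covariate. P-values were adjusted over all genes tested (Benjamini-Hochberg, threshold 0.05). TMM factors lay between 1.076 and 1.233 in mild-hypo-OPC libraries and between 0.8088 and 0.9451 in the others. The standard error is the one implied by the F statistic. Ratios of members within a library had a prior count of 0.5 added and were tested in SciPy 1.17.1 by two-sided exact permutation. A count of 3 was the floor below which no fold is given. All 15 library pairs within each group differed beyond sampling noise (chi-square over its degrees of freedom from 3.39 to 21.4), so none repeats the counts of another. Separate preparations or sequencing runs of 1 culture could also differ in this way, and the comparison does not show how many cultures there were. The statistics were also tested on simulated data.

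The members and gene lists were chosen with earlier results of these data known. Named genes are all members, every called gene of a list (up to 8) with its 2 genes of the highest CPM, and the 3 genes most correlated with each called member. Others, such as P3h1, Egln3, the fibrillar collagen and the Lox genes, were named after their values were seen. Alternatives were limma-voom (limma 3.58.1), DESeq2 1.42.0, other scalings and filters, a replicate block, parts of the libraries, thinning and covariates. One marker of committed oligodendrocytes is not reported here. Intervals cover the spread between libraries and not the unequal depth. Promoters came from a RefSeq table (GRCr8). Figures were drawn with matplotlib 3.10.9.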

Additional observations from a re-analysis of the deposited data

Results flagged for a closer look

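In all, 3 values stood apart from the other libraries of their group by more than the Dixon criterion for 6 samples allows, among 24 groups examined, and chance flags about 1 group in 20. Plod1 in standard OPC replicate 2 was 10.6 scaled CPM, and the nearest library of the group had 5.52. The log2 ratio of P4ha1 to P4ha2 in mild-hypo-OPC replicate 3 was 7.65, next to 6.73 in the nearest library, and it rests on a P4ha2 count of 1. The log2 ratio of P4ha1 to P4hb in mild-hypo-OPC replicate 4 was -2.57, below the nearest library of its group at -2.48 and above the highest standard OPC library at -2.71.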

How the results depend on the processing

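P4ha1 was above 0 in each of its 26 alternatives (0.31 to 0.91), as were Plod3 (0.26 to 0.77) and Serpinh1 (0.03 to 1.03) in theirs, and members called lower stayed at 0. P4ha2 had 0 to 4 counts per library, with no fold change given, and after thinning Plod3 and Serpinh1 were no longer called. The calls depended most on scaling, on the libraries used and on covariates, and the cause was not tested. The covariate for log2 total count is tied to the condition, so calls lost and signs turned with it do not show what depth contributed. The 626 higher and 1520 lower calls over all genes became 1136 higher with upper-quartile scaling, 5515 higher and 405 lower with library size only (which moves the median of all genes to 0.43), 53 and 343 in replicates 1 to 3, 398 higher after thinning, 0 and 43 with the log2 total count as a covariate, and 23 and 173 with the ribosomal RNA share as a covariate (a setting chosen once the data had been seen). The 3 members called higher became 6 with library size only, 0 in replicates 1 to 3, 1 in replicates 4 to 6, 1 after thinning, 0 with either covariate, and 1 (without standard OPC replicate 3) to 4 (without standard OPC replicate 2) when a library was left out. Genes of the 6 lists called higher were 21 with upper-quartile scaling, 46 with library size only, 1 in replicates 1 to 3, 7 after thinning and 0 with either covariate, and those called lower were 1, 2 and 0 with library size only, in replicates 1 to 3 and with either covariate. Signs turned for Kdelr2 (0.05 with upper-quartile scaling, 0.41 with library size only, 0.01 without a filter, 0.05 in replicates 1 to 3, 0.19 with the total count as a covariate, -0.07 to 0.04 with a library left out), with library size only for Col11a1 (0.17), Egln1 (0.29) and Egln2 (0.17), and with the total count as a covariate for Col11a2 (-0.06), Egln1 (0.27), Egln2 (0.08), Ero1a (-0.13), Hk1 (-0.03), Hsp90b1 (-0.12), Ppib (0.15), Sdf2l1 (0.12) and Sparc (-0.42). With the ribosomal RNA share as a covariate P4hb was -0.07 and Calr -0.06. Plod2, fitted without the filter, was -0.02 in replicates 1 to 3, -0.03 after thinning and -0.37 with the total count as a covariate. The log2 ratio of P4ha1 to P4ha2 was 0.70 with a prior count of 0.1, 0.82 after thinning, 1.41 in replicates 1 to 3, 1.43 in replicates 4 to 6 and 1.09 to 1.72 with a library left out. That of P4ha1 to P4hb was 0.37 in replicates 1 to 3 and 0.42 in replicates 4 to 6, where the smallest exact p is 0.1. That of Plod2 to Plod3 was -0.62 with a prior count of 5 and -0.48 to -0.15 with a library left out, and that of Plod2 to Plod1 -0.68 to -0.26. The labels do not say whether replicate numbers pair the samples, and the levels gave no clear sign of it. Deviations of same-numbered libraries correlated between -0.276 and 0.296, over 0.1 in 2 of 6 pairs, and 1 library correlated best with its own number. Depth and ribosomal RNA share also differed between libraries, so low correlations cannot show that the samples were unpaired. With the replicate block the ratios of P4ha1 to P4ha2 and to P4hb were 1.42 and 0.40 (both adjusted p = 0.0625, exact sign-flip permutation). Neither passed 0.05 there, where the smallest exact p before adjustment is 0.0312. In the same setting P4ha1 was 0.48 (adjusted p = 0.00343, edgeR). Summing rows of a repeated symbol was not run, since each member has 1 row, and Plod1, Serpinh1 and Crtap had no value under the filter of 10 counts in every library.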

Other observations

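Among the mild-hypo-OPC libraries, P4ha1 had a variance below the Poisson variance of counting error. Its variance was 0.0887 times the Poisson variance there, a ratio at or below which 0.123% of the tested genes lay, and 1.12 times in standard OPCs, where 25.1% of genes lay at or below it. The median over all tested genes was 1.94 in both groups. In Serpinh1 the ratio was 6.36 in mild-hypo-OPCs and 2.78 in standard OPCs, and in Plod3 it was 1.45 and 0.776. P4ha1 was looked at because its values were close together, so its place among the genes is a description. With 6 libraries per group, some of the 8938 genes tested have low ratios by chance.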
